A study of Mus musculus with 9 samples.

Results

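The genes of the extracellular matrix are described here in the embryonic mouse retina, in 3 genotypes at the gene of the basic helix-loop-helix factor Neurog2, which starts neuron formation. Members were taken by gene symbol: every collagen and laminin chain, the nidogens Nid1 and Nid2, Fn1, Hspg2, Fbn1, Fbn2, Lum, Dcn, Bgn, Sparc, Tnc, Vcan, Postn and Agrn. Of 12388 genes with a symbol in the deposited tables, 36 were members, and 32 of these were listed in both tables. Bgn, Tnc, Postn and Col1a1 were not analysed here. The samples were optic cups from CD-1 embryos at E12.5, picked for green fluorescence, dissected in pairs and dissociated before total RNA was sequenced. The knock-in group (KI) carried GFP at one Neurog2 allele and a knock-in allele at the other, the mutant group (MUT) carried GFP at both alleles, and the heterozygotes (HET) carried GFP at one allele and a wild-type allele at the other, with 3 samples each. GFP at one or more Neurog2 alleles was thus shared by all 3 groups, and there was no sample without it.

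The deposited values are RPKM, read density scaled to transcript length and sequencing depth, with 1 pooled value per group and assembled transcript. No value per sample was given, so no SD can be printed, and the depth per sample is unknown. A gene's level below is the sum of RPKM over its listed transcripts. The replicate error enters only through the Cuffdiff test in the authors' deposited tables, and a gene was called where 1 of its transcripts had q of 0.05 or less there. Nothing in the labels gives the litters, so the test measures only the spread among these samples. Neurog2 was at 36.2 RPKM in the mutant group, against 30.2 RPKM in the heterozygote, and at 112 RPKM in the knock-in group, against 35.5 RPKM in the mutant group. It therefore does not check the labels, and the groups are written as KI-labelled and MUT-labelled. Sex also differed: the Y-linked Eif2s3y was listed at 0 in the MUT-labelled group against 21.9 RPKM in the heterozygote, and was at 28.6 RPKM in the KI-labelled group against 0 in the MUT-labelled group. A number in the sample titles is common to MUT-labelled and heterozygote samples and differs in the KI-labelled ones, and what it marks cannot be told apart from the knock-in label. The labelled tissue was borne out by its markers: all 10 retinal progenitor genes looked up were listed in both tables, with summed RPKM of 2635 in the MUT-labelled group against 2182 in the heterozygote, and of 2485 in the KI-labelled group against 2585 in the MUT-labelled group.

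The extracellular matrix is the mesh of secreted proteins around and beneath cells. In the eye the vitreous gel is built on collagens of types II, IX and XI, and type IX collagen is made at the ciliary margin. The inner surface of the neural retina and the pigment epithelium rest on basement membranes of laminin, type IV collagen, nidogen and heparan sulphate proteoglycans. The mesenchyme around the optic cup, which gives rise to sclera and corneal stroma, lays down fibrillar collagens of types I, III and V with small leucine-rich proteoglycans.

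Sparc, a collagen-binding glycoprotein, had the highest level of the members, with 307 RPKM in the MUT-labelled group and 223 RPKM in the heterozygote, and with 318 RPKM in the KI-labelled group and 301 RPKM in the MUT-labelled group. Agrn, the proteoglycan agrin of basement membranes, came next in the heterozygote with 141 RPKM, and then Fn1, fibronectin, with 59.9 RPKM. Col9a1, a chain of type IX collagen, was at 32.0 RPKM and Vcan, the hyaluronan-binding proteoglycan versican, at 31.4 RPKM there. Without values per sample it cannot be said which neighbours in this order differ beyond their spread. At the low end of the heterozygote column stood Col24a1 with 0.870 RPKM and Col6a2 with 0.849 RPKM. The tables list transcripts that reached about 1 RPKM in the higher group (0.906 RPKM for MUT-labelled against heterozygote, 1.04 RPKM for KI-labelled against MUT-labelled), so low members are seen only where a group was above that. Summed over all members, the matrix genes came to 849 RPKM in the MUT-labelled group against 719 RPKM in the heterozygote, and to 821 RPKM in the KI-labelled group against 836 RPKM in the MUT-labelled group.

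**Figure D1:**
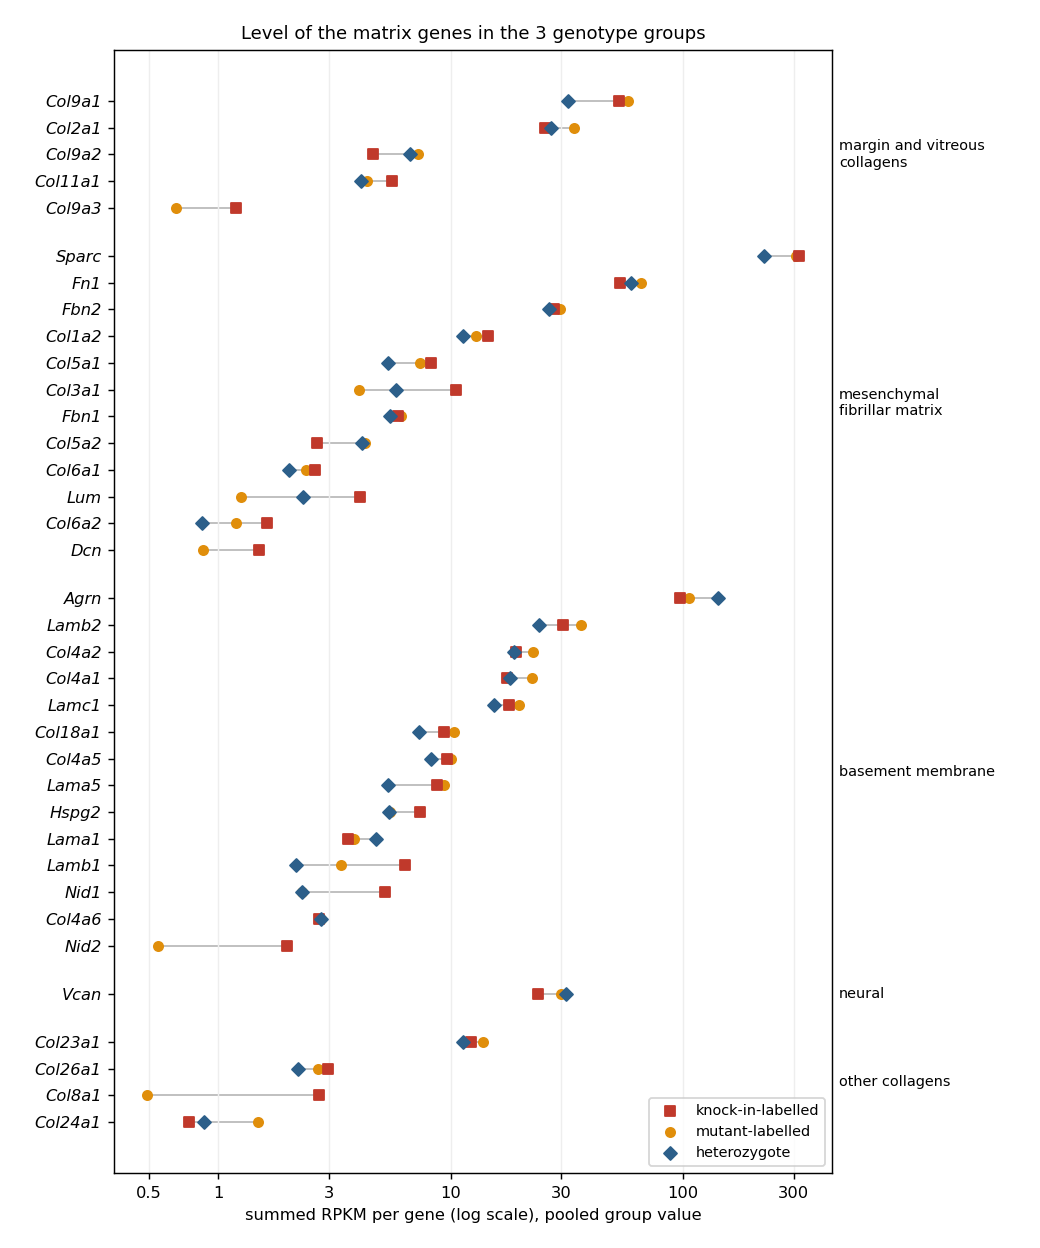
Summed RPKM of the 36 matrix genes on a log axis, by role, with 1 pooled value per group: squares for knock-in-labelled (KI), circles for mutant-labelled (MUT) and diamonds for heterozygote retinas. The mutant value is that of the table with the heterozygote where the gene is in it; the 4 genes without a diamond (Col9a3, Dcn, Nid2, Col8a1) are listed only with the knock-in group, and levels run from Sparc at 318 RPKM to Col8a1 at 0.492 RPKM.

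The question of the first comparison, MUT-labelled over heterozygote retinas, is what changes with a second GFP allele at Neurog2. Of the 32 matrix genes listed, Col9a1 alone was called. Its main transcript was at 37.9 RPKM in the MUT-labelled group and at 17.5 RPKM in the heterozygote, a log2 ratio of 1.12 (q = 0.0109, the lowest in the authors' deposited table). Of all 12247 genes, 1.34% were called, 0.245% higher and 1.09% lower, so 1 gene of 32 is near what the whole table gives. The RNA came from whole dissected tissue, where fewer cells of a type and less RNA per cell cannot be told apart. By summed RPKM 25 of the 32 members were higher in the MUT-labelled group and 7 lower, against 6691 higher and 5556 lower of all genes. By the most abundant transcript of each member, 20 were higher and 12 lower. The members' median log2 ratio was 0.26 and that of all genes 0.03. The middle of all genes, from the 25th to the 75th percentile, ran from -0.17 to 0.21, and the members' own quartiles ran from 0.04 to 0.45. Retinal progenitor genes had a median of 0.29 in the same comparison, and the retinal neuron genes, of which 4 of 5 were called lower, a median of -0.97. No marker of other tissues was called in this comparison, while 11 of the 21 listed had an unadjusted p under 0.05 in Cuffdiff's test, against 10.9% of all genes. Summed marker levels were 22.7 RPKM in the MUT-labelled group against 19.6 RPKM in the heterozygote for pigment epithelium, 38.9 against 60.8 RPKM for lens and 33.9 against 29.4 RPKM for blood. These sums join genes of both signs. Of the 5 pigment genes, all at an unadjusted p under 0.05 in Cuffdiff's test, 4 were higher, and Tyr was lower, at 6.95 against 9.43 RPKM. In lens 1 gene was higher and 5 lower, and in blood 2 were higher and 2 lower. Of the 2 endothelial genes, Kdr was at 20.7 against 16.8 RPKM and Egfl7 at 9.38 against 6.45 RPKM. The sums were 4.83 against 11.2 RPKM for macrophages and 10.4 against 6.95 RPKM for surface ectoderm. The part of cell make-up in the matrix values was not tested.

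The second comparison, KI-labelled over MUT-labelled retinas, asks what the knock-in allele changes where no intact Neurog2 allele is present. Of the 36 members, 3 were called, all higher in the KI-labelled group. Col8a1, a chain of the type VIII collagen of the cornea's inner membrane, was at 2.71 RPKM in the KI-labelled group and at 0.492 RPKM in the MUT-labelled group, a log2 ratio of 2.46. Lum, the stromal proteoglycan lumican, was at 4.06 RPKM against 1.22 RPKM, a log2 ratio of 1.73, and Nid1, nidogen, at 5.23 RPKM against 2.24 RPKM, a log2 ratio of 1.22. Each had q = 0.0104 in the authors' deposited table, its lowest value. Of all 11989 genes, 1.67% were called, 1.03% higher and 0.634% lower. The members' median log2 ratio was -0.0017 and that of all genes -0.0021, and 18 members were higher and 18 lower. Their upper quartile lay at 0.46, against 0.21 for all genes. That quartile includes Col8a1, Col9a3, Dcn and Nid2, which are listed only in this table, at 0.492 to 0.855 RPKM in the MUT-labelled group, and passed its lower limit through their KI-labelled value. Over the 32 members in both tables the upper quartile was 0.19 and the median -0.04, with 14 higher and 18 lower. Single members ran from -0.96 to 2.46.

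Markers of other tissues moved with the knock-in label. Of the pigment epithelium markers, 9 were listed, all higher, and 7 of them were called, with summed RPKM of 110 in the KI-labelled group against 24.0 in the MUT-labelled group. All 8 listed lens genes were higher and 3 were called, with 138 RPKM against 39.0 RPKM, and Foxe3, a factor of the lens epithelium, was listed at 0 in the MUT-labelled group. All 5 listed blood genes were higher and 2 were called, with 126 RPKM against 33.8 RPKM. Of 17 periocular mesenchyme markers that are not matrix genes, 4 were listed, all higher, with 6.51 RPKM against 2.91 RPKM in sum. Pdgfra, the PDGF receptor alpha of mesenchyme, was the called gene among them, with 1.54 RPKM in the KI-labelled group and 0.449 RPKM in the MUT-labelled group (q = 0.0104 in the authors' deposited table). Tfap2b, a factor of the periocular crest, was at 2.12 RPKM against 0.775 RPKM and Twist1 at 1.18 RPKM against 0.288 RPKM. The remaining periocular marker, Pdgfrb, was at 1.66 RPKM against 1.40 RPKM. Since listing needs about 1 RPKM in 1 group, a marker can enter this table through its high KI-labelled value alone. Among such markers were the pigment genes Tyrp1, Mlana, Slc45a2 and Mitf and the lens genes Foxe3 and Lim2. Pdgfra, Tfap2b and Twist1 were others. All of these were at 0.841 RPKM or less in the MUT-labelled group and could be listed only as higher. The 2 listed endothelial genes came to 24.0 RPKM in the KI-labelled group against 29.5 RPKM in the MUT-labelled group, and neither was called. The 1 macrophage gene was at 3.61 RPKM against 4.74 RPKM, and the 2 surface ectoderm genes, with Krt18 called higher, came to 16.8 RPKM against 10.2 RPKM. Fos, an immediate early gene that cells induce within minutes of a stimulus, also differed by the same label. It fell to 0.536 RPKM in the KI-labelled group, against 31.8 RPKM in the MUT-labelled group, summed over 2 transcripts of which 1 was called (q = 0.0104 in the authors' deposited table). In the first comparison Fos was at 32.4 RPKM in the MUT-labelled group against 13.7 RPKM in the heterozygote, and was not called. The part of these tissues and of Fos in the matrix values was not tested.

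**Figure D2:**
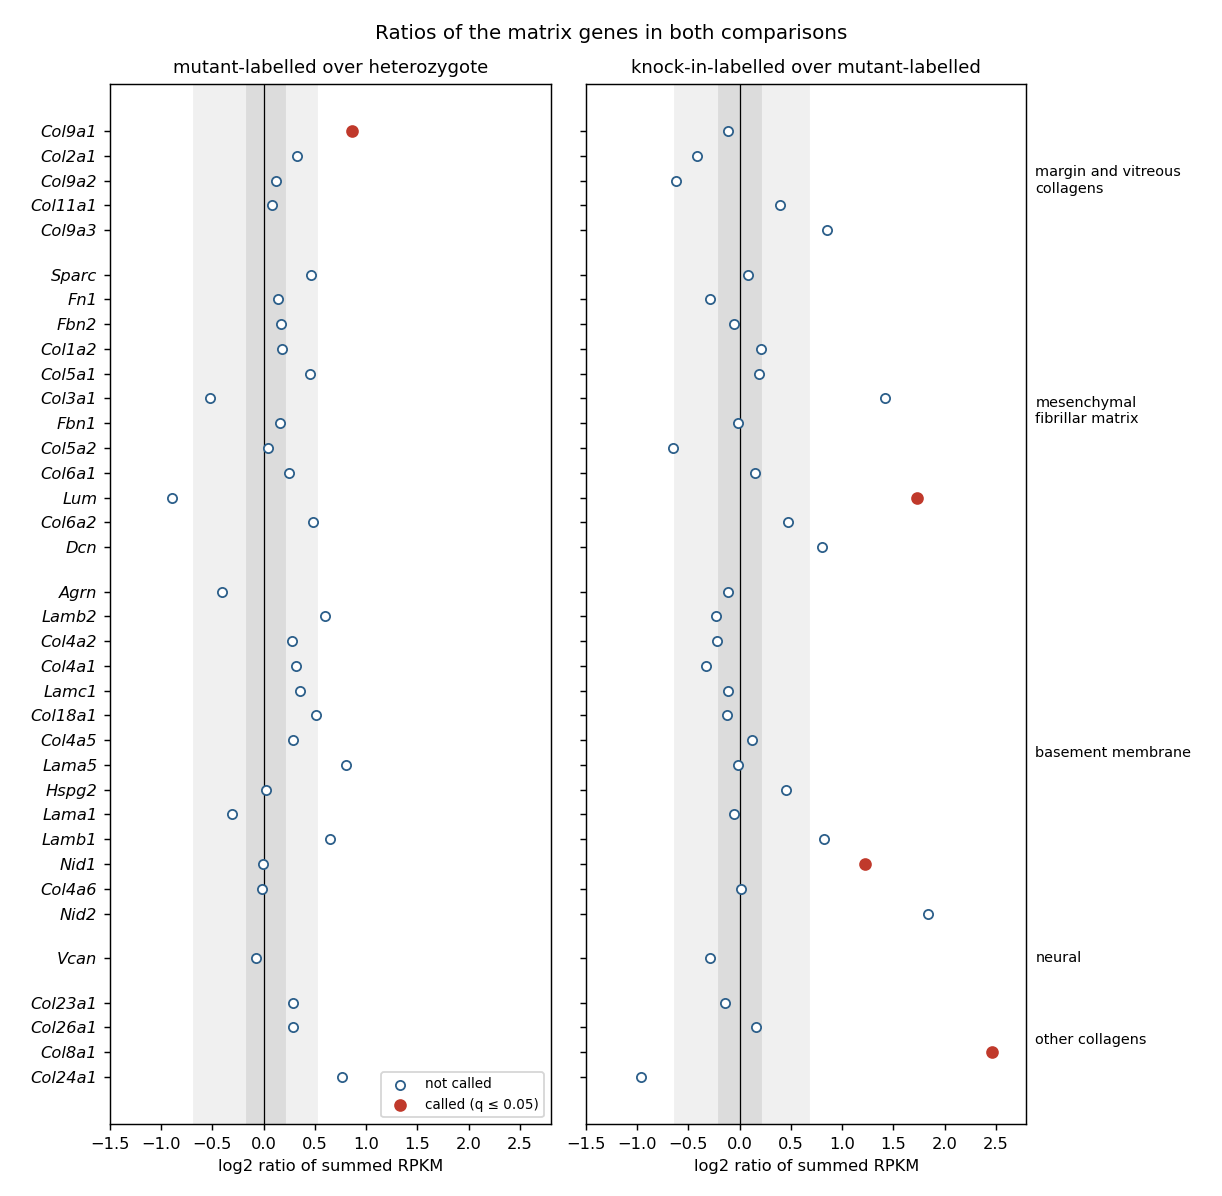
Log2 ratio of summed RPKM of each matrix gene, MUT-labelled over heterozygote on the left and KI-labelled over MUT-labelled on the right, by role; filled points have a transcript called in the authors' test, and the bands hold the middle 50% and 90% of all genes. Most points on the left sit right of 0 with Col9a1 the filled one, and on the right the filled points are Lum, Nid1 and Col8a1.

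The margin and vitreous collagens were listed with 5 genes. Col9a1 (mm10 chromosome 1, 24177610 to 24252684, plus strand) encodes the alpha chain of type IX collagen that coats collagen fibrils in the vitreous and is made at the ciliary margin. Its level was 58.2 RPKM in the MUT-labelled group and 32.0 RPKM in the heterozygote, 1.82-fold or 0.86 on the log2 scale. It was 53.0 RPKM in the KI-labelled group and 57.1 RPKM in the MUT-labelled group, a log2 ratio of -0.11. The gene was thus high in both groups without a wild-type Neurog2 allele and lower in the heterozygote. Each table lists 3 of its transcripts, and the call fell on the most abundant. GENCODE annotates a 38-exon transcript and a 32-exon transcript that begins inside the gene at 24195187. The deposited tables give each transcript only the whole locus, so it cannot be said which of these starts the called transcript uses. Both RefSeq start windows are shown because this is the one matrix member called in MUT-labelled over heterozygote retinas, with E-boxes, the CANNTG letters that basic helix-loop-helix factors bind, in capitals (GRCm38.p6, from 250 bases before to 50 after each start, 5' to 3').
Col9a1, upstream start (chr1:24177360-24177659, plus strand): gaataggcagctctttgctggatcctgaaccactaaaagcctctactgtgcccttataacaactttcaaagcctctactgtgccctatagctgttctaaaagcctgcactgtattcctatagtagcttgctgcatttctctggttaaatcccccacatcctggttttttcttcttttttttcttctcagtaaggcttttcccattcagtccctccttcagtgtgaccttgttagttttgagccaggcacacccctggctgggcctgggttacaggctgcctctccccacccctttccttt
Col9a1, internal start (chr1:24194953-24195252, plus strand): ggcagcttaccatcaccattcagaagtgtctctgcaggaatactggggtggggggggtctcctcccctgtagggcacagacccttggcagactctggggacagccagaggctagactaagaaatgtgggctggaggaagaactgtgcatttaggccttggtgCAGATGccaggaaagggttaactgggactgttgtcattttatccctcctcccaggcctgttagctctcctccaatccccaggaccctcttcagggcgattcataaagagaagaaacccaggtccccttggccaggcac
The upstream window held no CANNTG and the internal window held 1, with the letters CAGATG. Of 32851 RefSeq windows of this length, 72.3% held at least 1 CANNTG (a motif that reads the same on both strands) and 17.2% held CAGATG on either strand. Windows were found for 25 of the 36 members, 29 windows in all, of which 51.7% held CANNTG and 17.2% CAGATG. A match in these letters is a description and not a binding site.

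The other chains of this group were not called in either comparison. Col2a1, the main fibril collagen of the vitreous, was at 33.9 RPKM in the MUT-labelled group and 27.2 RPKM in the heterozygote, and at 25.4 RPKM in the KI-labelled group and 34.0 RPKM in the MUT-labelled group. Its most abundant transcript, at 30.8 RPKM against 23.1 RPKM in the first of these pairs, had p = 0.0115 and q = 0.496 in the authors' deposited table. Col9a2, the second chain of the type IX trimer, was at 7.25 RPKM and 6.66 RPKM in MUT-labelled and heterozygote retinas. It was at 4.64 RPKM in the KI-labelled group and 7.11 RPKM in the MUT-labelled group, a log2 ratio of -0.62, with p = 0.00095 and q = 0.0868 in the authors' deposited table, the lowest q of any uncalled member. Col11a1, a chain of the minor fibrillar type XI, was at 4.35 RPKM in the MUT-labelled group against 4.12 RPKM in the heterozygote, and at 5.60 RPKM in the KI-labelled group against 4.27 RPKM in the MUT-labelled group. Col9a3, the third type IX chain, was listed only with the knock-in group, at 1.19 RPKM against 0.659 RPKM in the MUT-labelled group. The locus given for Col9a3 also covers Tcfl5. The 3 chains of type IX collagen thus had unlike levels and unlike ratios. By summed RPKM Col9a1 was above Col2a1 in every column, and Col9a2 and Col9a3 were far below both. By the most abundant transcript the order in the heterozygote was the other way, with Col2a1 at 23.1 RPKM and Col9a1 at 17.5 RPKM.

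The chosen markers of the ciliary margin give a setting for these values. Of 9 listed with MUT-labelled and heterozygote retinas none was called, and 2 had an unadjusted p under 0.05 in Cuffdiff's test, against 10.9% of all genes. By summed RPKM 6 were higher and 3 lower, and the median log2 ratio was 0.26. The 3 lower ones, Ccnd2, Bmp4 and Zic2, had log2 ratios of -0.86, -0.64 and -0.19. Wfdc1, a margin marker, was at 44.2 RPKM in the MUT-labelled group against 33.1 RPKM in the heterozygote, with p = 0.0108 and q = 0.484 in the authors' deposited table. Of 8 listed with KI-labelled and MUT-labelled retinas, Gja1 was called higher, where 1.67% of all genes were called. By summed RPKM 5 of the 8 were higher and 3 lower, and the median was 0.07. An unadjusted p under 0.05 in Cuffdiff's test was found for 4 of the 8, against 14.6% of all genes. Of these 4, Gja1, Bmp7 and Ccnd2 were higher, with log2 ratios of 0.94, 0.96 and 2.64, and Zic1 was lower. Zic1, a zinc finger factor, was at 46.5 RPKM in the KI-labelled group against 85.5 RPKM in the MUT-labelled group, with a lowest p of 0.00715 and q of 0.295 in the authors' deposited table, so it was not called.

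The mesenchymal fibrillar matrix had 11 genes listed in the first comparison, and 12 in the other. In MUT-labelled over heterozygote retinas none was called (1, Lum, had an unadjusted p under 0.05 in Cuffdiff's test), 9 were higher and 2 lower, and the median log2 ratio was 0.17. The 2 lower members were Lum and Col3a1. Lum (chromosome 10, 97565128 to 97572703, 3 exons, plus strand) was at 1.25 RPKM in the MUT-labelled group and 2.31 RPKM in the heterozygote, a log2 ratio of -0.89, with p = 0.00315 and q = 0.242 in the authors' deposited table. Col3a1, the type III chain, was at 4.03 RPKM and 5.80 RPKM in the same groups, a log2 ratio of -0.52. Of the 17 periocular markers that are not matrix genes, Tfap2b was listed in this comparison, at 1.16 RPKM in the MUT-labelled group and 2.48 RPKM in the heterozygote, and its part in these 2 values was not tested. In KI-labelled over MUT-labelled retinas Lum was the called gene, 8 members were higher and 4 lower, and the median was 0.17. Col3a1 was at 10.6 RPKM in the KI-labelled group and 3.96 RPKM in the MUT-labelled group, a log2 ratio of 1.42; its most abundant transcript had p = 0.00655 and q = 0.283 in the authors' deposited table, so it was not called. Dcn, decorin, a small leucine-rich proteoglycan that lies 46984 bases from Lum on chromosome 10, was at 1.49 RPKM in the KI-labelled group and 0.855 RPKM in the MUT-labelled group.

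These low, mesenchymal members did not all have the same sign. Col5a2, a type V chain that lies 24614 bases from Col3a1 on chromosome 1 on the other strand, was at 2.66 RPKM in the KI-labelled group and 4.18 RPKM in the MUT-labelled group, a log2 ratio of -0.65 (lowest p = 0.0125 and q = 0.385 in the authors' deposited table). Its partner chain Col5a1 was at 8.22 RPKM against 7.22 RPKM. Col1a2, a type I chain, was at 14.5 RPKM in the KI-labelled group against 12.6 RPKM in the MUT-labelled group, and at 12.8 RPKM in the MUT-labelled group against 11.4 RPKM in the heterozygote. The type VI chains Col6a1 and Col6a2 were at 2.60 RPKM and 1.62 RPKM in the KI-labelled group and at 2.35 RPKM and 1.16 RPKM in the MUT-labelled group.

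The abundant members of this group are not confined to mesenchyme by their known biology, and none was called. Sparc, the most abundant, had a log2 ratio of 0.46 in MUT-labelled over heterozygote retinas, above 93.8% of all genes (lowest p = 0.0527 in the authors' deposited table), and of 0.08 in KI-labelled over MUT-labelled retinas. Fn1 was at 65.9 RPKM in the MUT-labelled group and 59.9 RPKM in the heterozygote, and at 53.6 RPKM in the KI-labelled group and 65.3 RPKM in the MUT-labelled group. Fbn2, the fibrillin of embryonic microfibrils, was at 29.7 RPKM and 26.4 RPKM in MUT-labelled and heterozygote retinas, and at 28.0 RPKM and 29.1 RPKM in KI-labelled and MUT-labelled retinas. Fbn1, the second fibrillin, lay between 5.49 and 6.14 RPKM in all 4 columns. Without Sparc and Fn1, the group came to 69.1 RPKM in the MUT-labelled group against 63.8 RPKM in the heterozygote, and to 79.7 RPKM in the KI-labelled group against 68.7 RPKM in the MUT-labelled group.

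The basement membrane genes were listed with 13 members in the first comparison, none of them called (2, Agrn and Col18a1, had an unadjusted p under 0.05 in Cuffdiff's test), 9 higher and 4 lower in the MUT-labelled group, with a median log2 ratio of 0.29. Among the laminins, which form trimers of an alpha, a beta and a gamma chain, Lamc1, the common gamma chain, was at 19.7 RPKM in the MUT-labelled group and 15.4 RPKM in the heterozygote. The beta chain Lamb2 was at 36.5 RPKM and 24.1 RPKM, the beta chain Lamb1 at 3.37 RPKM and 2.15 RPKM, and the alpha chain Lama5 at 9.32 RPKM and 5.36 RPKM in the same groups. Lama1, the early embryonic alpha chain, had a ratio of the other sign, with 3.85 RPKM in the MUT-labelled group and 4.78 RPKM in the heterozygote, with p = 0.0521 and q = 0.976 in the authors' deposited table. Lamb2 was thus the more abundant beta chain in every column. Agrn was at 107 RPKM in the MUT-labelled group and 141 RPKM in the heterozygote, a log2 ratio of -0.41, and its most abundant transcript had p = 0.0229 and q = 0.714 in the authors' deposited table. Col18a1, the source of the fragment endostatin, was at 10.4 RPKM against 7.30 RPKM, with p = 0.0081 and q = 0.420 in the authors' deposited table. The locus given for it also covers Slc19a1.

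In KI-labelled over MUT-labelled retinas 14 basement membrane genes were listed, 6 higher and 8 lower, with a median log2 ratio of -0.04, and Nid1 was the call. Nid1 (chromosome 13, 13437551 to 13512269, 20 exons, plus strand) links laminin to type IV collagen. It was at 5.23 RPKM in the KI-labelled group against 2.24 RPKM in the MUT-labelled group, and at 2.28 RPKM in the MUT-labelled group against 2.30 RPKM in the heterozygote. The log2 ratio of its single listed transcript was thus 1.22 for KI-labelled over MUT-labelled retinas and -0.01 for MUT-labelled over heterozygote retinas. Nid2, the second nidogen, was at 1.96 RPKM in the KI-labelled group and 0.550 RPKM in the MUT-labelled group, a log2 ratio of 1.84, but was not called (p = 0.0534, q = 0.725 in the authors' deposited table), and its locus there also covers Rtraf. Lamb1 was at 6.33 RPKM against 3.57 RPKM, with no transcript called, and Hspg2, perlecan, at 7.39 RPKM against 5.39 RPKM. The laminin and type IV collagen chains that nidogen joins had ratios of both signs. Lamc1 was at 17.9 RPKM in the KI-labelled group and 19.4 RPKM in the MUT-labelled group, and Lama1 at 3.63 RPKM and 3.78 RPKM. On the log2 scale Lamb1 had 0.83, Col4a5 0.12 and Col4a6 0.01. The other laminin chains were lower, with -0.23 for Lamb2, -0.12 for Lamc1, -0.06 for Lama1 and -0.02 for Lama5. Col4a1, at -0.33, and Col4a2, at -0.22, were lower as well. Hspg2, which is neither a laminin nor a collagen, had 0.46. The RefSeq window at the start of Nid1 is shown because it belongs to a called gene with 1 listed transcript, and it held no CANNTG (GRCm38.p6, 5' to 3').
Nid1 (chr13:13437352-13437651, plus strand): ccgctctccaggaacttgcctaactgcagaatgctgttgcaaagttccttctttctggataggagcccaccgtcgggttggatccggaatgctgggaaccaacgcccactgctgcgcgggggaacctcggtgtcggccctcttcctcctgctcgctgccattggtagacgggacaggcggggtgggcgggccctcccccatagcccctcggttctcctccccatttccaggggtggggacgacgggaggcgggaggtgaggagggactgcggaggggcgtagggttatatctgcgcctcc

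Type IV collagen, the net of basement membranes, was listed with 4 chains and none was called. Col4a1 and Col4a2, which form the common trimer, had nearly the same level in every group. Col4a1 was at 22.5 RPKM in the MUT-labelled group and 18.1 RPKM in the heterozygote, and at 17.6 RPKM in the KI-labelled group and 22.0 RPKM in the MUT-labelled group. Col4a2 was at 22.7 RPKM and 18.8 RPKM in MUT-labelled and heterozygote retinas, and at 19.1 RPKM and 22.3 RPKM in KI-labelled and MUT-labelled retinas. The log2 ratios of the pair were 0.31 and 0.28 in the first comparison and -0.33 and -0.22 in the second. The 2 genes lie head to head on chromosome 8, and their RefSeq start windows, with starts 21 bases apart, share 78 bases, given in capitals in the window of Col4a2 (GRCm38.p6, 5' to 3').
Col4a2 (chr8:11312555-11312854, plus strand): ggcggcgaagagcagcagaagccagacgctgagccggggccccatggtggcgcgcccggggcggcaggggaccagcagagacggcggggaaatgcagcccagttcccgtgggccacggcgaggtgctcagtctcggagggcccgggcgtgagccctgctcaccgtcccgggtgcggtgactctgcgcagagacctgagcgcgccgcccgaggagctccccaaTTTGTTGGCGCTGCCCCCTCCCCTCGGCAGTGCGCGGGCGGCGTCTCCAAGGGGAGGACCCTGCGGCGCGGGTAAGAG
This window held no CANNTG. The annotated ends of the genes overlap and the library kit is not a strand-marking one, so reads in that overlap cannot be assigned to one of the pair. Col4a5, paired in the same way with Col4a6 on the X chromosome with 1308 bases between them, was at 10.0 RPKM in the MUT-labelled group and 8.22 RPKM in the heterozygote, and at 9.62 RPKM in the KI-labelled group and 8.82 RPKM in the MUT-labelled group. Col4a6 lay between 2.70 and 2.77 RPKM in all 4 columns.

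Vcan, the listed member of the neural matrix group, was not called. It was at 29.7 RPKM in the MUT-labelled group and 31.4 RPKM in the heterozygote, and at 23.9 RPKM in the KI-labelled group and 29.2 RPKM in the MUT-labelled group. Its locus in the tables also covers Tmem167 and Xrcc4.

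Among the remaining collagens, Col8a1 (chromosome 16, 57624258 to 57754737, 4 exons, minus strand) had the highest ratio of all members, 5.50-fold in the KI-labelled group over the MUT-labelled group. It reached that table through its KI-labelled level of 2.71 RPKM, since its MUT-labelled level of 0.492 RPKM is under the listing limit. With a pseudocount of 1 RPKM its log2 ratio of 2.46 became 1.31. It was listed in that table only, so its heterozygote level is not given. Its start window is shown with its 3 E-boxes in capitals, CAAGTG at both flanking positions and CACCTG between them (GRCm38.p6, 5' to 3').
Col8a1 (chr16:57754688-57754987, minus strand): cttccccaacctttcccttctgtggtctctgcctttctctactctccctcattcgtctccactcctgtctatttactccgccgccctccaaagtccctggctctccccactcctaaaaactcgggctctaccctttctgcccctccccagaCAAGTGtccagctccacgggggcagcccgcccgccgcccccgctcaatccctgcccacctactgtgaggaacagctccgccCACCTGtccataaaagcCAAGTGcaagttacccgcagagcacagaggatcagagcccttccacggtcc
Col23a1, a membrane-spanning collagen, was at 13.8 RPKM in the MUT-labelled group and 11.4 RPKM in the heterozygote, and at 12.2 RPKM in the KI-labelled group and 13.5 RPKM in the MUT-labelled group. Col26a1 was at 2.69 RPKM and 2.21 RPKM in MUT-labelled and heterozygote retinas, and at 2.95 RPKM and 2.64 RPKM in KI-labelled and MUT-labelled retinas. Col24a1, a fibrillar collagen, had the lowest ratio of the second comparison, 0.745 RPKM in the KI-labelled group against 1.45 RPKM in the MUT-labelled group, a log2 ratio of -0.96 with p = 0.687 in the authors' deposited table. In the first comparison it was at 1.48 RPKM against 0.870 RPKM.

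Some transcripts of members with several listed transcripts had large ratios, and these seldom carried a call. The share of all transcripts past 2-fold is not given here, so it cannot be said whether the counts are particular to matrix genes. In MUT-labelled over heterozygote retinas 17 members had several listed transcripts, 56 in all. In 12 of them the transcripts had ratios of both signs, and 9 transcripts were past 2-fold, of which the Col9a1 transcript was called. In KI-labelled over MUT-labelled retinas 16 members had 58 transcripts, 16 of them past 2-fold and 0 called, while the 3 called members each had a single transcript. Of the 20 members with 1 listed transcript, 4 were past 2-fold in this comparison, the 3 called genes and Nid2.

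Col9a1 shows the pattern. Its called transcript was at 37.9 RPKM in the MUT-labelled group against 17.5 RPKM in the heterozygote, and at 31.2 RPKM in the KI-labelled group against 37.2 RPKM in the MUT-labelled group. The next was at 13.9 RPKM against 11.0 RPKM, and at 21.8 RPKM against 13.5 RPKM in the same pairs. The third was at 6.30 RPKM against 3.48 RPKM, and at 0.0235 RPKM in the KI-labelled group against 6.34 RPKM in the MUT-labelled group. That last difference, -8.08 on the log2 scale, had p = 0.233 in the authors' deposited table. Transcripts were matched between the tables by their mutant values, within 0.05 on the log2 scale, which paired 54 of the 71 and 78 member transcripts.

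Other abundant members gave similar examples. A Sparc transcript was at 11.6 RPKM in the KI-labelled group and 44.9 RPKM in the MUT-labelled group (p = 0.304 in the authors' deposited table), while the main one was at 210 RPKM and 203 RPKM. A Lamb2 transcript was at 11.5 RPKM in the MUT-labelled group and listed at 0 in the heterozygote, with p = 0.112 in the authors' deposited table, and its 3 other transcripts, at 7.15 to 9.38 RPKM in the heterozygote, had log2 ratios between -0.08 and 0.24. The summed Lamb2 ratio of 0.59 thus rests on that transcript. Fn1, with 7 and 8 listed transcripts, had a summed log2 ratio of 0.14 and -0.29 in these, with ratios of both signs among its transcripts each time.

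**Figure D3:**
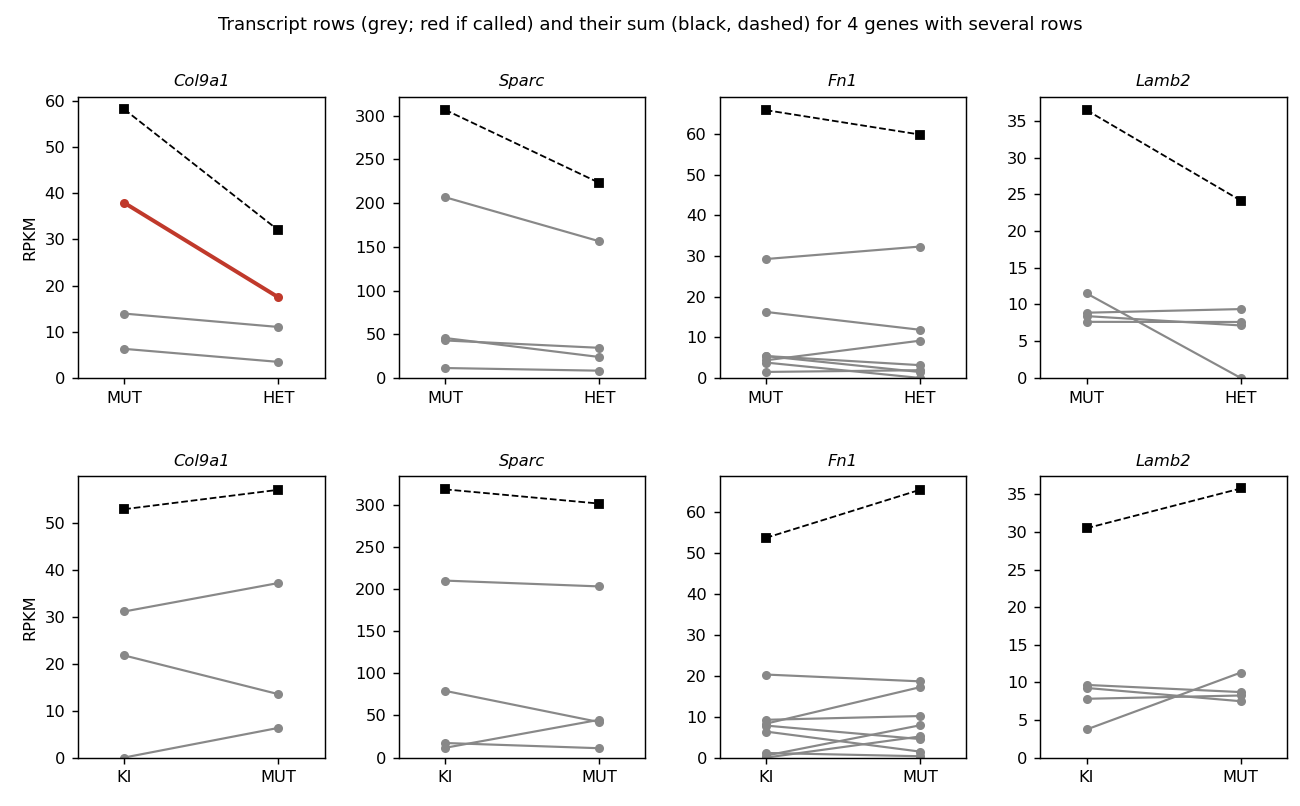
RPKM of each listed transcript (circles, red where called) and of their sum (black squares, dashed) for Col9a1, Sparc, Fn1 and Lamb2, MUT-labelled (MUT) left of heterozygote (HET) in the upper row and KI-labelled (KI) left of MUT-labelled in the lower row. The called Col9a1 transcript is at 37.9 RPKM in MUT and 17.5 RPKM in HET, and transcripts of Fn1 and Lamb2 cross one another while their sums differ little or follow 1 transcript.

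The MUT-labelled samples are in both tables, which were normalized separately. For the 27 members with as many transcripts in each, the 2 mutant values differed by -0.08 to -0.03 on the log2 scale. Adding the 2 log2 ratios per gene sets the KI-labelled group over the heterozygote, with no test. The median over 32 members was then 0.37, with 22 above 0, and that of all 11791 genes 0.03, with 6377 above 0. Nid1, with 1 transcript in each table, came to 1.21. Lamb1 came to 1.47, over 3 listed transcripts in one table and 4 in the other, with none called; the most abundant transcript of each table had log2 ratios of 0.16 and 0.76. Col6a2 came to 0.96, Col3a1 to 0.89, Lum to 0.84 and Col9a1 to 0.75. Col5a2, at -0.61, and Agrn, at -0.52, were lowest. The paths differed: for Nid1 the second comparison gave the whole of the sum (-0.01 and 1.22), for Col9a1 the first (0.86 and -0.11), and for Lum the 2 ratios had opposite signs (-0.89 and 1.73). The same mutant samples are the numerator of the first ratio and the denominator of the second. An error in their value therefore moves the 2 ratios in opposite directions, and the paths were not tested.

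No listed cell surface receptor of the matrix was called in either comparison, where 1.34% and 1.67% of all genes were called. Of 36 integrins, dystroglycan, syndecans, glypicans and other receptors looked up, 20 and 19 were listed. In the 2 comparisons 3 and 1 of them were at an unadjusted p under 0.05 in Cuffdiff's test, against 10.9% and 14.6% of all genes, with a median log2 ratio of 0.05 both times. Itgb1, the beta chain common to most matrix-binding integrins, was at 50.2 RPKM in the MUT-labelled group against 53.5 RPKM in the heterozygote, and at 57.7 RPKM in the KI-labelled group against 49.4 RPKM in the MUT-labelled group. Dag1, dystroglycan, the receptor for laminin and agrin, was at 52.9 RPKM against 45.6 RPKM and at 54.8 RPKM against 52.9 RPKM in the same pairs.

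Genes that modify and cross-link collagen were listed with 21 and 23 of 32 members. None was called in MUT-labelled over heterozygote retinas, against 1.34% of all genes. There 1 had an unadjusted p under 0.05 in Cuffdiff's test, against 10.9% of all genes. The median log2 ratio in that comparison was 0.14, and the most abundant, P4hb, a subunit of prolyl hydroxylase, was at 281 RPKM against 250 RPKM. In KI-labelled over MUT-labelled retinas 16 of the 23 were higher and 7 lower, with a median log2 ratio of 0.14. The called gene was Colgalt2, a collagen galactosyltransferase, which fell to 1.40 RPKM, against 2.68 RPKM in the MUT-labelled group (q = 0.0254 in the authors' deposited table). With it, 5 had an unadjusted p under 0.05 in Cuffdiff's test, against 14.6% of all genes. The others of these, Lox, Ppib, Serpinh1 and Loxl2, were higher by summed RPKM and not called. Of the proteases and inhibitors of matrix turnover, 15 and 14 of 18 were listed. In the first comparison 4 of the 15 had an unadjusted p under 0.05 in Cuffdiff's test, against 10.9% of all genes, and 1 was called. That gene, Adamts5, which cleaves aggrecan and versican, fell to 1.40 RPKM in the MUT-labelled group, against 2.42 RPKM in the heterozygote (q = 0.0109 in the authors' deposited table). None was called in the second comparison, against 1.67% of all genes. There 3 had an unadjusted p under 0.05 in Cuffdiff's test, against 14.6% of all genes. Of these, Mmp11, a metalloproteinase, was at 44.6 RPKM in the KI-labelled group and 91.9 RPKM in the MUT-labelled group with p = 0.0014 and q = 0.112 in the authors' deposited table. Mmp2 and Mmp15 were higher in the KI-labelled group.

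Matrix genes outside the collagen and laminin families, 57 in the list and 27 listed in each table, held 4 calls in MUT-labelled over heterozygote retinas and 0 in the other comparison, where 1.34% and 1.67% of all genes were called. Smoc1, a secreted calcium-binding protein of basement membranes, rose to 19.3 RPKM in the MUT-labelled group, against 7.68 RPKM in the heterozygote, summed over its transcripts. Has2, a hyaluronan synthase, rose to 1.31 RPKM, against 0.660 RPKM in the heterozygote (q = 0.0424 in the authors' deposited table). Spock2, a testican proteoglycan, fell to 8.72 RPKM, against 14.1 RPKM in the heterozygote. Ncan, neurocan, the chondroitin sulphate proteoglycan of nervous tissue, fell to 4.37 RPKM, against 7.12 RPKM in the heterozygote. The 2 that fell are proteoglycans of neural tissue, and retinal neuron genes were lower in the same comparison; their part in these 2 values was not tested. In KI-labelled over MUT-labelled retinas no gene of this list had q of 0.05 or less in Cuffdiff's test, and 7 of 27 had a transcript at an unadjusted p under 0.05, against 14.6% of all genes.

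**Figure D4:**
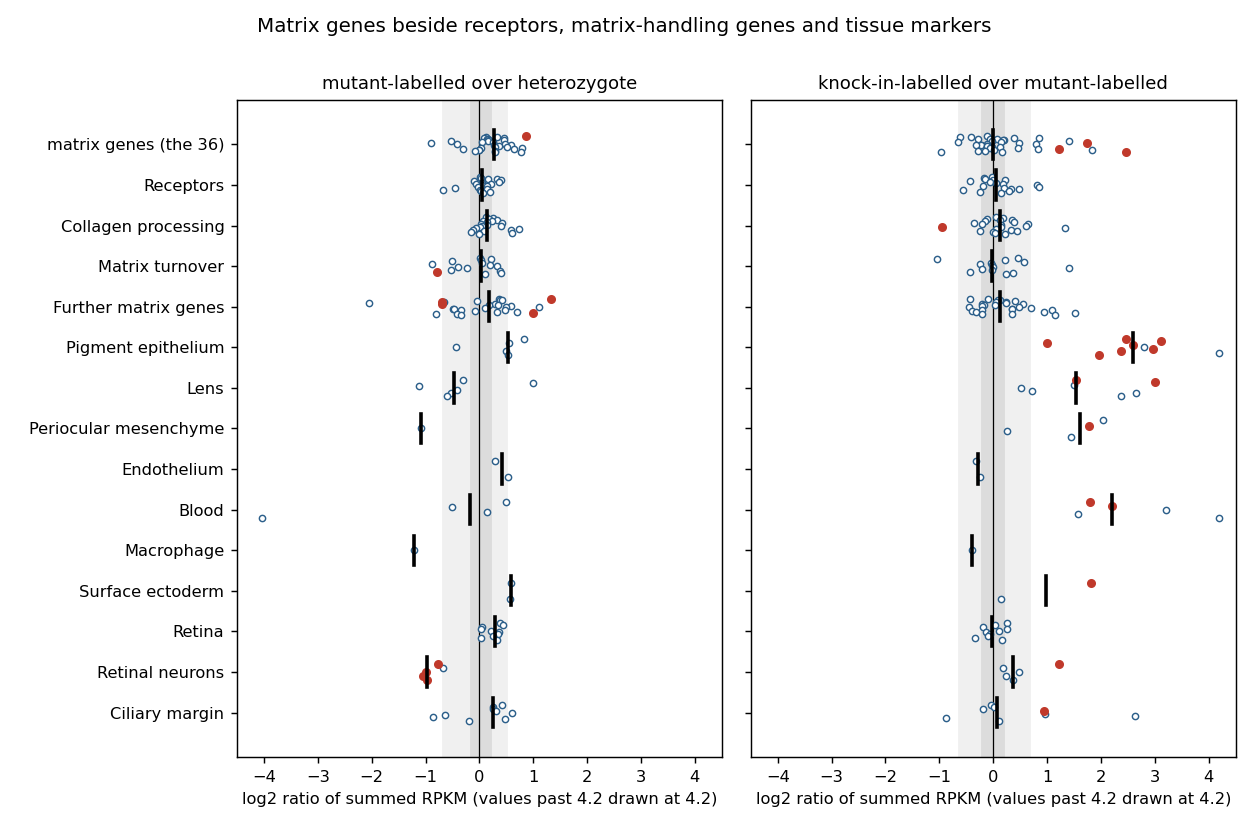
Log2 ratios of summed RPKM for the matrix genes and 14 further gene lists, MUT-labelled over heterozygote on the left and KI-labelled over MUT-labelled on the right; each point is a gene, red where called, black bars are medians and the bands hold the middle 50% and 90% of all genes. The medians of the matrix genes are 0.26 and -0.0017, and pigment epithelium, lens and blood lie to the right in the right panel; genes listed at 0 in a group, such as Foxe3, have no point.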

How the data were processed

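Retinal RNA-seq of CD-1 mice at E12.5 was used, with 3 samples in each of 3 Neurog2 genotypes taken from the labels. Per the labels' protocols, dissociated optic cups gave total RNA (RNeasy Micro) and TruSeq RNA libraries; no sort is named. Bowtie2, Cufflinks and Cuffdiff were run against mm10, per the submitters' processing notes, which list no version. The authors deposited 1 RPKM value per group and assembled transcript, pooled over replicates, beside the p-value and q-value of their own test. The tables hold 27311 and 26586 transcripts; 173 and 172 without a gene symbol were left out by gene. The deposited q-values equalled a Benjamini-Hochberg adjustment over all transcripts of a table to within 5.26e-07. Depth is unknown.

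From these, RPKM was summed per gene and log2 ratios were taken without a pseudocount (Python 3.11.15, pandas 2.3.3, numpy 2.4.6). No test was added. Where transcripts differ in direction, the sum can go against the most abundant one. Coordinates are from GENCODE on the same assembly. The named genes are all called members, the 4 most abundant of each of 5 role groups, and the 4 highest and 4 lowest ratios of each comparison among members at 1 RPKM or more, 25 of 36 in all; of the 14 other lists, called genes or the most abundant; other names were added for their role after values were seen. Members and lists were chosen with earlier results of these data known. The adjustment and summing steps were tested on simulated data. The gene inserted in the knock-in allele is not reported here. Alternatives were the call threshold, the adjustment, filters on low values, pseudocounts, centring, the most abundant transcript, and members in both tables.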

Additional observations from a re-analysis of the deposited data

How the results depend on the processing

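At an unadjusted p under 0.05, in place of q of 0.05 or less, 5 members were called in MUT-labelled over heterozygote retinas (Agrn, Col18a1, Col2a1, Col9a1 and Lum; 10.9% of all genes) and 7 in KI-labelled over MUT-labelled retinas (Col1a2, Col3a1, Col5a2, Col8a1, Col9a2, Lum and Nid1; 14.6% of all genes). With transcripts under 5 RPKM in both groups left out and the rest adjusted again, 1 member was called in the second comparison. It was Nid1, since Col8a1 and Lum are under that level, and 2.25% of the genes left were called. At q of 0.10, 4 members were called there, Col9a2 being the added one, against 2.54% of all genes. With 1 Simes p per gene the same 4 were called, against 2.24% of all genes. There were 2 called members, Lum and Nid1, among genes listed in both tables, where 1.61% were called. The first comparison gave 1 member, Col9a1, under each of these. The share of all genes there was 1.46% with the 5 RPKM limit and 1.69% at q of 0.10. It was 1.62% with 1 Simes p per gene and 1.29% among genes listed in both tables. The median log2 ratio was 0.16 to 0.28 in the first comparison and -0.08 to 0.08 in the second over all alternatives, including members with as many transcripts in both tables, which was chosen after seeing the data. The added ratio over the heterozygote had a median of 0.23 with the most abundant transcript (the cause was not tested). With a pseudocount of 1 RPKM, 11 of 48 named ratios moved by over 0.1 and none changed sign. With the most abundant transcript in place of the sum, 14 of 48 named ratios moved by over 0.1 and 6 changed sign, those of Fn1 and Lamb2 in both comparisons and of Col11a1 and Col5a2 in the first. No paired analysis was possible because the deposited values are pooled over replicates and carry no replicate number, and for the same reason no replicate could be left out.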
